A study of Mus musculus with 48 samples.

Results

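Selenoprotein genes are genes whose mRNA encodes the rare amino acid selenocysteine. The 10 followed here were *Gpx1*, *Gpx4*, *Selenop*, *Txnrd1*, *Txnrd2*, *Dio1*, *Selenof*, *Selenok*, *Selenow* and *Msrb1*. They were taken by gene symbol out of 20622 genes in the cytoplasmic RNA tables and 16269 genes with a transcript counted for ribosome-protected fragments (RPFs), and all 10 had both. A further 14 mouse selenoprotein genes served as a comparison list. An RPF is the stretch of mRNA that a ribosome covers while it translates, and each liver gave 1 RPF library and 1 cytoplasmic RNA library. The animals were mice aged 2 to 4 months and weighing at least 20 g, all male per the labels. The paper describes male-only groups for a lower virus dose and for 1 Cre line, and both sexes in its other animal experiments. There were 3 mice for each of 4 genotypes at day 4 and 3 at day 10 after the virus AAV8.TBG.Cre, which made 24 mice and 48 libraries. The genotypes were wild-type (WT), Ctnnb1ex3/+ (B), R26-LSL-MYC (M) and both alleles together, Ctnnb1ex3/+; R26-LSL-MYC (BM). Cre removes exon 3 of 1 copy of *Ctnnb1* in B, which leaves a stabilized β-catenin, and switches on a MYC transgene in M. Mice of every group, WT included, received the virus, whose TBG promoter restricts Cre to hepatocytes, at 2e+11 genome copies (per ml and also per mouse in the labels). Other liver cells kept their alleles unrecombined, and the lysates were made from ground whole liver. In such bulk libraries, fewer cells of a type and less RNA per cell cannot be told apart.

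Selenocysteine is inserted at a UGA codon, which elsewhere ends translation. The ribosome reads it through when an RNA hairpin in the 3′ part of the mRNA, the SECIS element, is bound by SECISBP2, which brings the elongation factor EEFSEC with the selenocysteine tRNA. Liver is the main source of the plasma selenium carrier selenoprotein P, and hepatocyte selenoproteins remove peroxides, keep thioredoxin reduced and activate thyroid hormone.

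The UGA codon and its neighbours are shown for each member, because its position decides which part of the RPF count lies before the recoding step. The sequences were read 5′ to 3′ from the GENCODE vM39 form (GRCm39) of the transcript counted for RPFs, with the selenocysteine codon in capitals, up to 12 bases on each side of it, and fewer where the coding sequence ended sooner.
Gpx1: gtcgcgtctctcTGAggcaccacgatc
Gpx4: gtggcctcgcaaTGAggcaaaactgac
Selenop: cttcaagccagcTGAtacttgtgtctt
Txnrd1: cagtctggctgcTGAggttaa
Txnrd2: gtgactggttgcTGAggctaa
Dio1: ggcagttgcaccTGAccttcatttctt
Selenof: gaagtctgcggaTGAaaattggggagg
Selenok: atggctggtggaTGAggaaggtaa
Selenow: tattgtggagctTGAggctataagccc
Msrb1: caatcaagattcTGAatatttagcagc

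*Selenop* alone of the 10 had more than 1 UGA codon, with 10 of them, and its first is the one shown. Of these 10, 8 lay inside the stretch counted for RPFs, and the last, codon 377, lay after the last counted codon, 370. RPF counts left out the first 20 and the last 10 codons of each coding sequence. Codon numbers here are those of the vM39 forms, while RPFs were counted on vM27. Transcript lengths differed between these for *Selenop* (5782 against 2085 bases), *Txnrd1* (3404 against 2297), *Txnrd2* (1938 against 1905), *Selenok* (2457 against 1678) and *Msrb1* (888 against 886). Whether the coding sequences differed was not checked. In *Txnrd1*, *Txnrd2* and *Selenok* the UGA codon lay among the last codons left out, so that 0% of the counted codons came after it. In *Selenow* it was codon 13, inside the first codons left out, and 100% of the counted codons came after it. The first UGA codon was number 47 of 201 in *Gpx1*, 73 of 197 in *Gpx4*, 59 of 380 in *Selenop*, 126 of 257 in *Dio1*, 93 of 162 in *Selenof* and 95 of 116 in *Msrb1*. The share of counted codons after it was 84.2%, 68.3%, 88.9%, 53.3%, 44.7% and 12.8% in that order. Reads were summed over the whole counted stretch, so that where the UGA codon was inside it, ribosomes before and after it could not be separated.

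**Figure D1:**
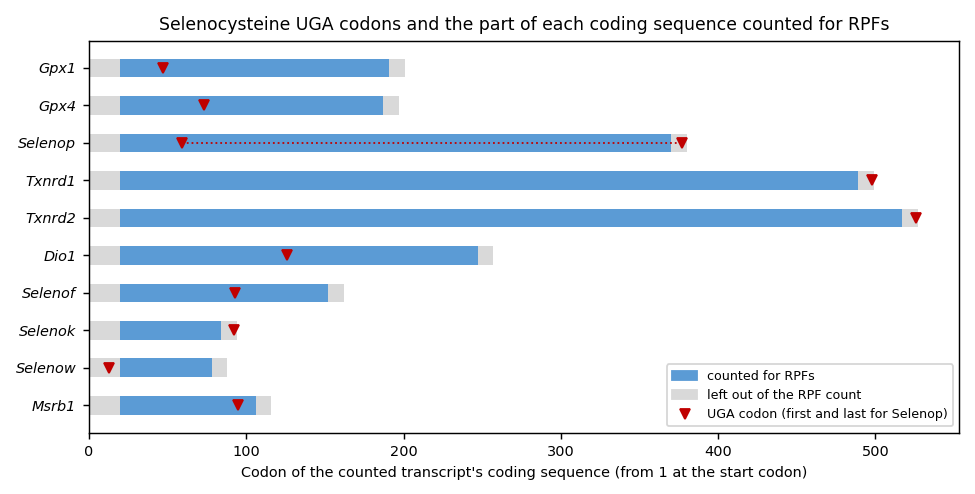
Coding sequence of the GENCODE vM39 form of the transcript counted for RPFs in each of the 10 genes, in codons from the start codon. Blue marks the counted codons, grey the codons left out at both ends, and red triangles the UGA codon, with the first and last of the 10 in *Selenop* joined by a dotted line. The first UGA codon is inside the counted stretch in *Gpx1*, *Gpx4*, *Selenop*, *Dio1*, *Selenof* and *Msrb1* and outside it in the other 4, and the last of *Selenop* is outside it.

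Library totals were 9742197 to 14380713 RPF counts (median 12503695) and 3254141 to 6540116 RNA counts (median 5077216). The hepatocyte markers *Alb*, *Ttr*, *Apoa1*, *Serpina1c*, *Hnf4a* and *Tat* were all found in every group. The β-catenin target *Glul* was at 2767 to 4602 RNA CPM (counts scaled to the library total times its TMM factor, which holds the typical gene equal between libraries) in B and BM mice of day 4 and 441 to 786 in WT and M mice, and *Myc* RPFs were 44.4 to 62.1 CPM in M and BM mice of day 4 and 2.43 to 18.3 in WT. *Myc* RNA overlapped between them, at 19.6 to 34.9 CPM in M and BM and 26.6 to 29.3 in WT. The M allele is a transgene, and reads were aligned to mouse transcripts. How far either kind of library counts the transgene under *Myc* was not tested. At day 10, BM mouse 1 stood apart. Its log2 CPM over all expressed genes correlated at 0.946 and 0.955 with those of BM mice 2 and 3 for RPFs, where the other pairs of mice of a group were at 0.978 to 0.994. For RNA it was at 0.949 and 0.956 against 0.969 to 0.988. The counts of calls in BM at day 10 are therefore also given without it, as are member values whose call it changed.

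RNA per transcript length, in TPM, ranked the members in the WT mice of day 4 from *Selenop* (3269 ± 191, SD, n = 3 mice) and *Gpx1* (2277 ± 41.2) down to *Txnrd2* (5.60 ± 1.05). *Selenof* (280 ± 32.6 TPM), *Msrb1* (240 ± 7.05) and *Gpx4* (222 ± 10.6) followed the first pair, and the mice of *Selenof* overlapped with those of *Msrb1*, as did those of *Msrb1* with *Gpx4*. *Dio1* was at 126 ± 2.60 TPM, above *Txnrd1* (50.9 ± 4.73), *Selenow* (50.3 ± 5.51) and *Selenok* (35.7 ± 0.914), and *Txnrd1* and *Selenow* lay within their spread. RPF CPM per kilobase of counted codons gave *Gpx1* 1699 ± 111 and *Selenop* 1641 ± 60.4, which lay within their spread, and *Msrb1* 660 ± 49.1. *Txnrd2* was again the lowest, at 23.3 ± 0.680. The level of translation efficiency (TE), here log2(RPF CPM + 0.5) − log2(RNA CPM + 0.5), compares a gene only with itself across mice, since RPF and RNA counts cover different lengths.

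**Figure D2:**
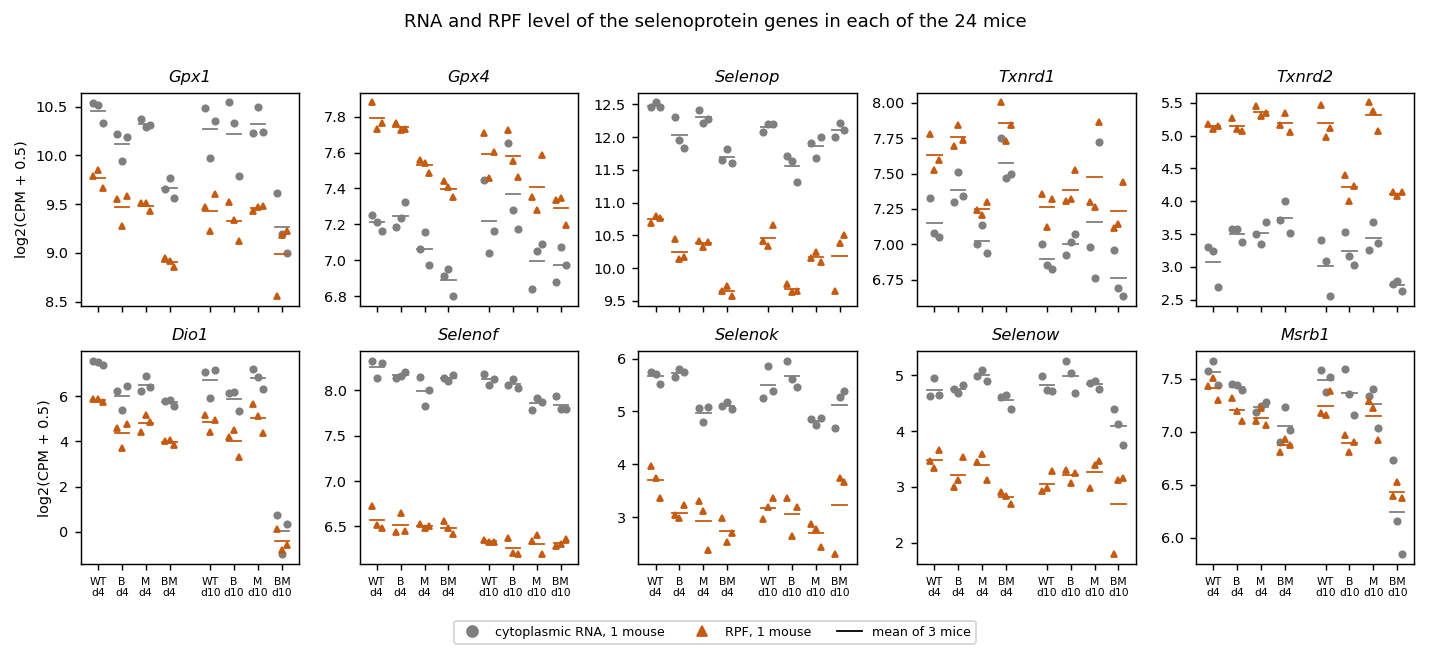
Level of each of the 10 genes in each of the 24 mice as log2(CPM + 0.5), with RNA in grey circles, RPFs in orange triangles and a line at the mean of the 3 mice of a group. The y axes differ between panels. *Dio1* RNA and RPFs fall to the bottom of their panel in BM at day 10, and *Txnrd2* RPFs drop in B and BM at day 10 while the RNA of the same B mice does not.

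The genotypes were compared with WT of the same day in edgeR (quasi-likelihood test), with p-values adjusted by Benjamini-Hochberg over all genes tested, and a value passed at an adjusted p under 0.1. All 10 genes were tested in every fit. Of 60 RNA values (10 genes in 6 comparisons), 20 passed, with 18 decreases and 2 increases, and of 60 RPF values 27 passed, with 25 decreases and 2 increases. Over all genes in the same comparisons, 25.2% of RNA values and 31.4% of RPF values passed, and 47.8% and 47.3% of those calls were decreases. Every change is relative to the typical gene, because TMM scaling holds the median log2 change over all genes near 0. The TMM factors differed between genotypes, for RNA of day 4 from 0.760 to 0.817 in WT to 1.117 to 1.172 in BM. Scaling by library totals alone, an alternative chosen after the data were seen, moved the median over all genes to as much as 0.54 (RNA in BM at day 4). It called 22 RNA values of members, 13 higher and 9 lower, beside 40.8% of all RNA values, and 22 RPF values, 9 higher and 13 lower, beside 42.6% of all RPF values. Decreases then made up 11.5% and 14.9% of the calls over all genes. Decreases thus outnumbered increases among the member calls by both scalings for RPFs, and only with TMM scaling for RNA. Of the 20 RNA and 27 RPF calls with TMM scaling, 11 and 15 were also made by library totals in the same direction, and 4 and 1 changed sign. Library totals called a further 10 RNA and 7 RPF values, all higher, which are given with each gene. These 6 comparisons share WT mice within a day and are not independent. *Dio1*, the deiodinase that turns thyroxine into active thyroid hormone, had the largest changes and passed in 5 of 6 comparisons for both RNA and RPFs.

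In B at day 4, 1 member passed for RNA (*Dio1*) and 4 for RPFs (*Gpx1*, *Selenop*, *Dio1* and *Selenok*), all lower than in WT, where 8.14% and 12.5% of all genes tested passed. In M at day 4, 3 passed for RNA (*Dio1*, *Selenok* and *Msrb1*) and 8 for RPFs, against 23.7% and 33.3% of all genes, and among the 8 only *Txnrd2* was higher. BM at day 4 had 8 for RNA and 8 for RPFs, against 41.9% and 50.9%. *Txnrd1* was higher in both, *Txnrd2* was higher in RNA, and the other calls were decreases. The median log2 change of the 10 in BM at day 4 was −0.42 for RNA and −0.60 for RPFs, where the median over all genes was −0.01 and 0.00. By library totals the medians of the 10 were 0.13 and −0.18, and those over all genes 0.54 and 0.42.

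At day 10, B had 2 members past the test for RNA (*Selenop* and *Dio1*) and 4 for RPFs (*Selenop*, *Txnrd2*, *Dio1* and *Msrb1*), all lower, against 15.6% and 25.2% of all genes. M had 1 for RNA (*Selenok*, lower) and 0 for RPFs, against 15.7% and 19.4%, and 2 of the 10 RPF values in M had an unadjusted p under 0.05. DESeq2 also called 0 of these RPF values. BM at day 10 had 5 for RNA (*Gpx1*, *Dio1*, *Selenof*, *Selenow* and *Msrb1*) and 3 for RPFs (*Txnrd2*, *Dio1* and *Msrb1*), all lower, against 45.7% and 46.8%. The RNA share was near that of genes at large and the RPF share below it. Without BM mouse 1, 6 members passed for RNA against 57.1% of genes, and 5 for RPFs against 66.3%. The median log2 change of the 10 in BM at day 10 was −0.39 for RNA and −0.31 for RPFs, beside 0.03 and 0.03 over all genes. By library totals these were 0.00 and 0.07, beside 0.43 and 0.41.

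TE was tested as an interaction between genotype and kind of library, which asks whether RPFs changed by another factor than RNA. Fitted without the mouse as a block, it called 0 of the 10 members in each of the 6 comparisons. Of all genes tested, 0.0488%, 0.971% and 2.23% passed for B, M and BM at day 4, and 0.0564%, 0% and 0.259% at day 10. At an unadjusted p under 0.05 there were 1, 0 and 4 members in B, M and BM at day 4 and 1, 0 and 1 at day 10. By library totals 1 TE value passed, *Selenop* in BM at day 4 (−0.41 ± 0.11, edgeR adjusted p = 0.0885). DESeq2 called 1 TE value, that of *Txnrd2* in B at day 10. RPF and RNA libraries of a mouse came from the same lysate. With the mouse as a block, 1 member passed for TE in B at day 4 (*Selenok*), 2 in BM at day 4 (*Selenop* and *Txnrd2*) and 1 in B at day 10 (*Txnrd2*), where 0.274%, 6.17% and 2.60% of all genes passed. Without BM mouse 1, the unblocked test called 4 members in BM at day 10, all higher (*Gpx1*, *Selenok*, *Selenow* and *Msrb1*), beside 21.5% of all genes.

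**Figure D3:**
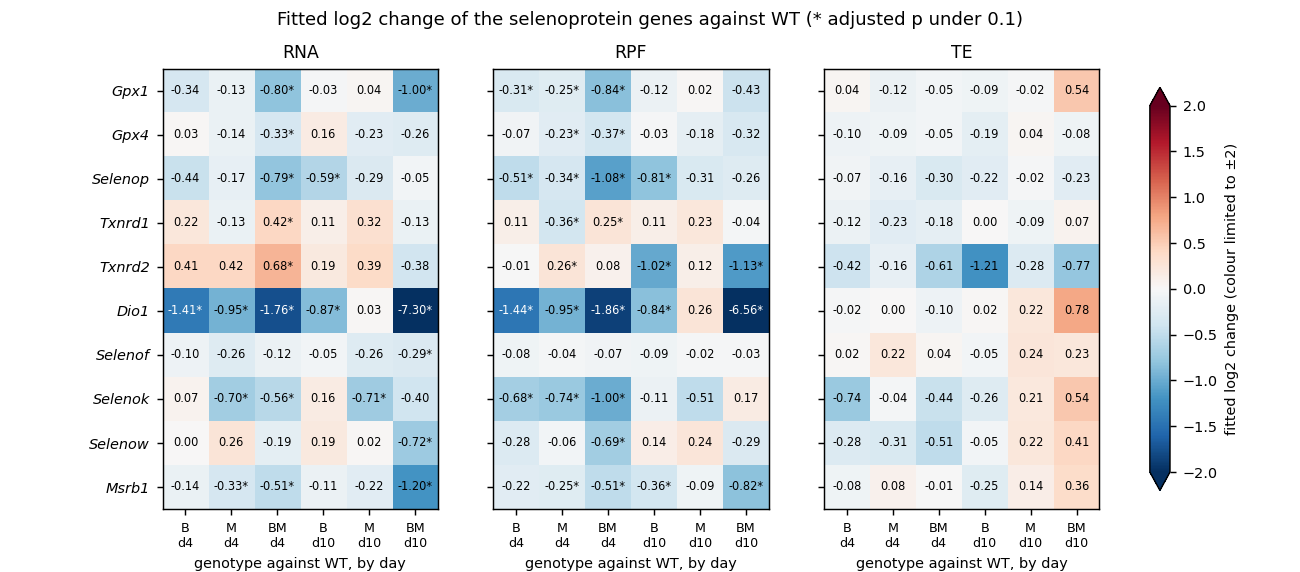
Fitted log2 change against WT for RNA, RPFs and TE (10 genes in rows, 6 comparisons in columns, d4 and d10 for the days). Blue is lower and red higher than WT, the colour stops at ±2 while the printed value does not, and an asterisk marks an adjusted p under 0.1. The *Dio1* row is darkest, at −7.30 for RNA and −6.56 for RPFs in BM at day 10. The TE panel, fitted without the mouse as a block, has no asterisk. With that block, TE of *Selenok* in B and of *Selenop* and *Txnrd2* in BM at day 4, and of *Txnrd2* in B at day 10, passed. All values are with TMM scaling. By library totals, 5 values with an asterisk change sign: RNA of *Gpx4* and *Msrb1* in BM and of *Msrb1* in M at day 4, RNA of *Selenof* in BM at day 10, and RPFs of *Gpx4* in BM at day 4.

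Whether a genotype effect differed between the days was tested directly, as its day 10 value minus its day 4 value over 12 mice. For B, 0 of 10 members passed for RNA, with 0 at an unadjusted p under 0.05 and 0 by DESeq2, and 1 for RPFs (*Txnrd2*), against 9.31% and 17.2% of all genes. For M, 0 passed for RNA and 0 for RPFs, against 1.20% and 1.18%. There, 1 RNA value and 2 RPF values had an unadjusted p under 0.05, and DESeq2 called 0 and 1 of them. For BM, 5 passed for RNA and 4 for RPFs, against 29.9% and 35.7%. TE called 0 members in each of the 3, beside 0%, 0% and 0.310% of all genes for B, M and BM, with 1, 0 and 0 members at an unadjusted p under 0.05 and 0 by DESeq2. Without BM mouse 1 of day 10, 6 members passed in BM for RNA, 7 for RPFs and 4 for TE, against 43.5%, 57.3% and 13.2% of all genes. The 4 TE differences were 1.01 ± 0.25 for *Gpx1*, 1.20 ± 0.35 for *Selenok*, 1.48 ± 0.31 for *Selenow* and 0.71 ± 0.22 for *Msrb1* (edgeR adjusted p of 0.0142, 0.0333, 0.00399 and 0.0465).

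*Gpx1* (ENSMUSG00000063856, chr9:108216102-108217546 of GRCm39, plus strand, UGA codon at chr9:108216650-108216652) encodes the abundant cytosolic glutathione peroxidase, which reduces hydrogen peroxide. Its RNA was at 1483, 1466 and 1285 CPM in WT mice at day 4 and at 804, 871 and 758 in BM mice, and RPFs were at 882, 923 and 810 against 492, 482 and 462. Each BM mouse was below each WT mouse in both. RNA fell by 0.80 ± 0.10 on the log2 scale (SE, n = 3 mice per group, edgeR adjusted p = 4.30e-05) and RPFs fell by 0.84 ± 0.08 (adjusted p = 1.22e-05), and the TE change was −0.05 ± 0.13 (adjusted p = 0.968). In M at day 4 its RPFs, at 729, 728 and 688 CPM, fell by 0.25 ± 0.07 (adjusted p = 0.0299). In B at day 4 they were at 750, 621 and 767 CPM and fell by 0.31 ± 0.10 (adjusted p = 0.0989), a call that was lost without any 1 mouse other than B mouse 1 (adjusted p of 0.102 to 0.317). By library totals the falls in BM were still called (−0.25 for RNA and −0.42 for RPFs), and the RPF changes in M and B were not (−0.04 and −0.19, adjusted p of 0.731 and 0.281), while RNA in M at day 4 was called higher (0.22, adjusted p = 0.0570). Of the 3 *Gpx1* isoforms in the RNA tables, 2, with 30.8% and 24% of its RNA, have no annotated UGA codon.

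At day 10 in BM, *Gpx1* passed for RNA only. RNA was at 782, 587 and 511 CPM in BM mice 1 to 3 and at 1438, 1004 and 1306 in WT, with no overlap, and fell by 1.00 ± 0.21 (edgeR adjusted p = 0.00643), also by library totals (−0.59). RPFs were at 377, 580 and 600 CPM in BM and 707, 598 and 778 in WT, where BM mouse 3 was above WT mouse 2, and their change of −0.43 ± 0.22 did not pass (adjusted p = 0.163). BM mouse 1 had the most RNA of the 3 and the fewest RPFs. The TE change was 0.54 ± 0.32 (adjusted p = 0.611) with all mice and 0.93 ± 0.23 (adjusted p = 0.0150) without BM mouse 1. The difference of the BM effect on RPFs between the days was 0.58 ± 0.16 without that mouse (adjusted p = 0.00661).

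*Gpx4* (ENSMUSG00000075706, chr10:79883000-79892273, plus strand, UGA codon at chr10:79890571-79890573) encodes the peroxidase of phospholipid hydroperoxides in membranes, which protects cells from ferroptosis. It was among the least changed members by TMM scaling. RNA in BM at day 4 was at 120, 123 and 111 CPM against 152, 148 and 143 in WT, with no overlap, and was lower by TMM scaling (−0.33 ± 0.09, edgeR adjusted p = 0.0115) but higher by library totals (0.22 ± 0.09, adjusted p = 0.0434). RPFs were at 173, 169 and 163 CPM against 235, 212 and 217 and changed by −0.37 ± 0.08 (adjusted p = 0.00220), and by 0.05 ± 0.08 by library totals (adjusted p = 0.576). In M at day 4, RPFs at 188, 186 and 179 CPM fell by 0.23 ± 0.07 (adjusted p = 0.0383), a call lost without WT mouse 1 (−0.19, adjusted p = 0.131) and by library totals (−0.02, adjusted p = 0.866), where RNA in M was called higher (0.21, adjusted p = 0.0756). No *Gpx4* value passed at day 10 with all mice by either scaling. In BM at day 10 its RPFs changed by −0.32 ± 0.15 (adjusted p = 0.122, and 0.06 by library totals), and by −0.34 ± 0.13 without BM mouse 1 (adjusted p = 0.0389).

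*Txnrd1* (ENSMUSG00000020250, chr10:82669785-82733546, plus strand, UGA codon at chr10:82731871-82731873) encodes the cytosolic thioredoxin reductase, which uses NADPH to keep thioredoxin in its reduced form. It was higher in BM at day 4. RNA was at 215, 177 and 180 CPM in BM and 160, 135 and 132 in WT, with no overlap, and rose by 0.42 ± 0.11 (edgeR adjusted p = 0.00797). RPFs were at 256, 212 and 229 CPM against 219, 184 and 193, where BM mouse 2 was below WT mouse 1, and rose by 0.25 ± 0.09 (adjusted p = 0.0515). That RPF call was lost without BM mouse 1, BM mouse 3, WT mouse 2 or WT mouse 3 (adjusted p of 0.101 to 0.164), while by library totals both rises were called (0.97 for RNA and 0.68 for RPFs). In M at day 4, RPFs at 151, 147 and 157 CPM were below each WT mouse and fell by 0.36 ± 0.08 (adjusted p = 0.0102), while RNA at 128, 140 and 122 CPM overlapped with WT (−0.13 ± 0.10, adjusted p = 0.424). By library totals the RPF change in M did not pass (−0.14, adjusted p = 0.203), and RNA was called higher in M (0.23, adjusted p = 0.0726) and B (0.43, adjusted p = 0.0320). At day 10 no *Txnrd1* value passed with all mice by TMM scaling, while by library totals RPFs were called higher in B (0.37, adjusted p = 0.0533) and M (0.48, adjusted p = 0.0823). Without BM mouse 1 RNA in BM changed by −0.25 ± 0.11 (adjusted p = 0.0924). M mouse 3, at 211 RNA CPM and 232 RPF CPM, was above the other M mice (126 and 108 RNA CPM, 157 and 153 RPF CPM). The BM effect on RNA was lower at day 10 than at day 4 by 0.56 ± 0.18 on the log2 scale (adjusted p = 0.0408), a difference that did not pass without BM mouse 1 of day 4 (−0.46, adjusted p = 0.107).

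*Txnrd2* (ENSMUSG00000075704, chr16:18245134-18297823, plus strand, UGA codon at chr16:18296522-18296524) encodes the mitochondrial thioredoxin reductase. It showed the widest gap between RPFs and RNA. At day 10 its RPFs were at 43.9, 31.1 and 34.1 CPM in WT, 20.7, 15.6 and 18.2 in B, 44.9, 40.9 and 33.1 in M and 17.1, 16.4 and 17.1 in BM. Each B and BM mouse was below each WT and M mouse. RPFs fell by 1.02 ± 0.16 on the log2 scale in B (edgeR adjusted p = 0.00370) and by 1.13 ± 0.18 in BM (adjusted p = 0.00289), and both calls remained with each mouse left out in turn and by library totals (−0.76 and −0.75). RNA was at 10.1, 8.02 and 5.40 CPM in WT, 11.1, 8.44 and 7.70 in B and 6.16, 6.42 and 5.71 in BM. The RNA of both genotypes overlapped with WT, with changes of 0.19 ± 0.26 in B (adjusted p = 0.707) and −0.38 ± 0.27 in BM (adjusted p = 0.294).

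The TE change of *Txnrd2* in B at day 10 was −1.21 ± 0.30 (edgeR adjusted p = 0.371, unadjusted p = 0.00137), −1.21 ± 0.33 by DESeq2 (adjusted p = 0.0978) and −1.21 ± 0.22 with the mouse as a block (adjusted p = 0.00223). In BM at day 10 it was −0.77 ± 0.30 (adjusted p = 0.437), and −0.77 ± 0.25 with the block (adjusted p = 0.122). The log2 TE level was at 2.06, 1.89 and 2.55 in the WT mice of day 10, 0.87, 0.85 and 1.19 in B and 1.40, 1.29 and 1.50 in BM, so that each B and BM mouse was below each WT mouse. RNA counts of *Txnrd2* were low, at 22 to 90 per library (median 48), while RPF counts were at 207 to 615 (median 389), and the RNA value limits the precision of its TE. With RNA counts of only the isoform used for RPFs, the TE change in B at day 10 was −1.01 (adjusted p = 0.875).

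At day 4 the RPFs of *Txnrd2* did not show this drop. They were at 35.8, 33.7 and 34.9 CPM in WT, 37.9, 33.8 and 33.2 in B and 35.4, 40.3 and 32.7 in BM, and overlapped. The effect on RPFs was lower at day 10 than at day 4 by 1.01 ± 0.19 on the log2 scale in B (edgeR adjusted p = 0.00504) and by 1.19 ± 0.19 in BM (adjusted p = 0.00110). RNA in BM at day 4, at 12.6, 15.6 and 11.0 CPM against 9.35, 9.0 and 6.0 in WT, rose by 0.68 ± 0.21 (adjusted p = 0.0212), with a TE change of −0.61 ± 0.22 (adjusted p = 0.292, and 0.0728 with the mouse as a block). The BM effect on RNA was lower at day 10 by 1.07 ± 0.35 (adjusted p = 0.0401), which did not pass without WT mouse 1 of day 10 (−0.85, adjusted p = 0.117). In M at day 4, RPFs at 43.4, 38.8 and 40.1 CPM rose by 0.26 ± 0.08 (adjusted p = 0.0462). DESeq2 did not call that rise (adjusted p = 0.176), and it was lost without M mouse 1, M mouse 3, WT mouse 2 or WT mouse 3 (adjusted p of 0.110 to 0.236). By library totals that rise was 0.47 (adjusted p = 0.00194), RPFs in BM were called higher (0.50, adjusted p = 9.97e-04), and RNA was called higher in B (0.61, adjusted p = 0.0721), M (0.78, adjusted p = 0.00754) and BM (1.23, adjusted p = 1.06e-04).

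**Figure D4:**
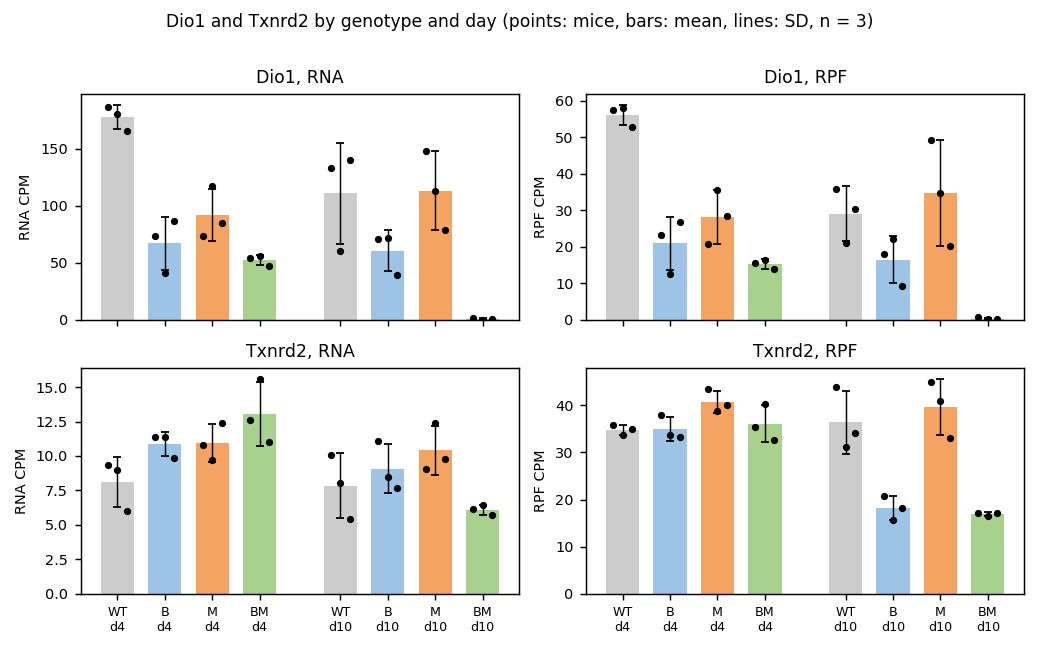
RNA and RPF level of *Dio1* (top) and *Txnrd2* (bottom) in CPM, with 1 point per mouse, bars at the mean of 3 mice and lines for the SD. *Dio1* is at 0 to 1.19 RNA CPM in the BM mice of day 10 and at 60.1 to 140 in the WT mice. *Txnrd2* RPFs are at 15.6 to 20.7 CPM in B and 16.4 to 17.1 in BM at day 10, below the 31.1 to 43.9 of WT.

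*Msrb1* (ENSMUSG00000075705, chr17:24955614-24961752, plus strand, UGA codon at chr17:24959132-24959134) encodes a methionine sulfoxide reductase, which repairs oxidized methionine in proteins. It was lower in BM at day 10 by both scalings, while its decreases in M and BM at day 4 rested on TMM scaling. RNA was at 190, 203 and 173 CPM in WT, 145, 151 and 155 in M and 119, 150 and 129 in BM at day 4, with each M and BM mouse below each WT mouse. The changes were −0.33 ± 0.09 in M (edgeR adjusted p = 0.0239) and −0.51 ± 0.11 in BM (adjusted p = 0.00203). Without M mouse 1 the value in M was −0.31 (adjusted p = 0.109). RPFs changed by −0.25 ± 0.08 in M (adjusted p = 0.0427) and by −0.51 ± 0.08 in BM (adjusted p = 4.48e-04). The RPF call in M was lost without M mouse 1, M mouse 3, WT mouse 1 or WT mouse 2 (adjusted p of 0.101 to 0.112). By library totals RNA changed by 0.03 in M and 0.04 in BM, and RPFs by −0.04 and −0.09, none of them called (adjusted p of 0.829, 0.765, 0.767 and 0.368).

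By day 10 in BM, *Msrb1* RNA was at 106, 71.1 and 56.9 CPM against 191, 166 and 183 in WT, and RPFs were at 83.5, 91.8 and 82.7 against 144, 142 and 167. No BM mouse overlapped with WT in either. RNA fell by 1.20 ± 0.22 (edgeR adjusted p = 0.00320) and RPFs fell by 0.82 ± 0.14 (adjusted p = 0.00451), also by library totals (−0.79 and −0.44). The TE change was 0.36 ± 0.27 (adjusted p = 0.699), and 0.68 ± 0.18 without BM mouse 1 (adjusted p = 0.0206), whose RNA was the highest of the 3. In B at day 10, RPFs at 125, 112 and 119 CPM were below each WT mouse and fell by 0.36 ± 0.11 (adjusted p = 0.0526), which did not pass without B mouse 2 or WT mouse 3 (adjusted p of 0.180 and 0.181) or by library totals (−0.10, adjusted p = 0.534), while RNA there changed by −0.11 ± 0.14 (adjusted p = 0.689). The BM effect on RNA was lower at day 10 than at day 4 by 0.69 ± 0.25 (adjusted p = 0.0626), a call lost in 6 of the 12 refits without 1 mouse (without BM mouse 2 of either day, BM mouse 3, WT mouse 1 or WT mouse 3 of day 10, or WT mouse 3 of day 4, adjusted p of 0.108 to 0.142). For RPFs that difference was −0.30 ± 0.15 and did not pass (adjusted p = 0.168). Without BM mouse 1 of day 10 the differences were −0.99 ± 0.17 for RNA (adjusted p = 2.91e-04) and −0.30 ± 0.14 for RPFs (adjusted p = 0.0957).

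*Selenop* (ENSMUSG00000064373, chr15:3298029-3313686, plus strand, first UGA codon at chr15:3304330-3304332) encodes selenoprotein P, the secreted protein that carries selenium from liver to other organs. It had the most RNA of the 10 by CPM, though not by TPM in every mouse, and fell at day 4 in all 3 mutant genotypes by RPFs. RPFs were at 1656, 1781 and 1733 CPM in WT, 1392, 1130 and 1151 in B, 1363, 1285 and 1352 in M and 801, 843 and 762 in BM. Every mutant mouse was below every WT mouse, and BM lay below B and M. The RPF changes were −0.51 ± 0.10 in B (edgeR adjusted p = 0.0108), −0.34 ± 0.07 in M (adjusted p = 0.00563) and −1.08 ± 0.08 in BM (adjusted p = 2.47e-06). By library totals they were −0.40, −0.12 and −0.65, and that in M was not called (adjusted p = 0.149). RNA was at 5610, 5920 and 5630 CPM in WT and 3223, 3603 and 3112 in BM, and fell by 0.79 ± 0.11 (adjusted p = 9.95e-05, or −0.24 by library totals, adjusted p = 0.0477). In B the RNA change of −0.44 ± 0.15 did not pass (adjusted p = 0.122), although DESeq2 called it (adjusted p = 0.0211) and it passed without B mouse 1 (−0.58, adjusted p = 0.00936). In M the RNA change was −0.17 ± 0.11 (adjusted p = 0.298).

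The TE change of *Selenop* in BM at day 4 was −0.30 ± 0.13 (edgeR adjusted p = 0.439), and −0.30 ± 0.08 with the mouse as a block (adjusted p = 0.0319). Its log2 TE level was at −1.76, −1.73 and −1.70 in WT and −2.01, −2.10 and −2.03 in BM, with no overlap. Since RPFs over the whole counted stretch, with 8 of its 10 UGA codons, were summed, the level does not tell where along the mRNA the ribosomes sat.

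At day 10 *Selenop* was low in B. RPFs were at 1360, 1293 and 1608 CPM in WT, 860, 791 and 800 in B, 1144, 1212 and 1088 in M and 806, 1339 and 1447 in BM. BM mouse 1 was at the level of the B mice and the other BM mice were within the WT range. RPFs fell by 0.81 ± 0.13 in B (edgeR adjusted p = 0.00332) and changed by −0.26 ± 0.25 in BM (adjusted p = 0.441), and by −0.04 ± 0.15 without BM mouse 1 (adjusted p = 0.841). RNA in B, at 3366, 3185 and 2539 CPM against 4337, 4709 and 4685 in WT, fell by 0.59 ± 0.18 (adjusted p = 0.0613), and this call was lost without B mouse 2, B mouse 3, WT mouse 1 or WT mouse 3 (adjusted p of 0.122 to 0.191) and by library totals (−0.38, adjusted p = 0.152), where RPFs in B were still called (−0.55). RNA in BM was called higher by library totals (0.35, adjusted p = 0.0973). The BM effect was higher at day 10 than at day 4 by 0.73 ± 0.19 for RNA (adjusted p = 0.0132) and by 0.83 ± 0.26 for RPFs (adjusted p = 0.0361), and by 0.78 ± 0.18 (adjusted p = 0.00350) and 1.03 ± 0.15 (adjusted p = 7.80e-05) without BM mouse 1.

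*Dio1* (ENSMUSG00000034785, chr4:107148662-107164366, minus strand, UGA codon at chr4:107154897-107154899) fell at day 4 in every mutant genotype. RNA was at 187, 181 and 166 CPM in WT, 73.6, 41.2 and 86.3 in B, 73.4, 117 and 84.9 in M and 54.1, 55.7 and 47.2 in BM. No mutant mouse overlapped with WT. The RNA changes were −1.41 ± 0.19 in B (edgeR adjusted p = 7.95e-04), −0.95 ± 0.14 in M (adjusted p = 3.22e-04) and −1.76 ± 0.10 in BM (adjusted p = 2.82e-08), and each call remained with each mouse left out in turn and by library totals (−1.22, −0.59 and −1.21). RPFs were at 57.4, 58.0 and 52.9 CPM in WT, 23.3, 12.6 and 26.7 in B, 20.8, 35.6 and 28.3 in M and 15.5, 16.3 and 13.8 in BM. They changed by nearly the same amounts, −1.44 ± 0.21 in B, −0.95 ± 0.16 in M and −1.86 ± 0.10 in BM (adjusted p of 0.00168, 0.00215 and 2.20e-07), and the TE changes were −0.02 ± 0.32, 0.00 ± 0.18 and −0.10 ± 0.13 (adjusted p of 1.000, 1.000 and 0.905).

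In BM at day 10 *Dio1* was close to undetected. Its RNA counts were 6, 0 and 3 in the BM libraries and 642, 307 and 571 in the WT libraries, and its RPF counts were 10, 1 and 2 against 409, 205 and 252. Every BM mouse was far below every WT mouse. Summed over the 3 mice of a group and divided by the plain library totals, without the TMM scaling of the CPM given elsewhere, WT had 121 times the RNA of BM (95% exact interval 63.8 to 266) and 74.0 times the RPFs (43.0 to 139), where the intervals cover counting error only. The fitted changes were −7.30 ± 0.56 for RNA (edgeR adjusted p = 5.54e-05) and −6.56 ± 0.48 for RPFs (adjusted p = 1.50e-04), whose size depends on the prior count that edgeR adds at such low counts. Of the 13 RPF counts in BM, 10 came from mouse 1. Without it, 3 RNA counts and 3 RPF counts remained, the ratios were 230 (95% exact interval 78.4 to 1115) and 195 (66.5 to 947), and the fitted changes were −8.15 ± 0.66 and −7.80 ± 0.44 (adjusted p of 1.97e-06 and 2.09e-07). *Dio1* passed the expression filter there through the WT mice. The BM effect was lower at day 10 than at day 4 by 5.54 ± 0.57 for RNA (adjusted p = 1.75e-05) and by 4.68 ± 0.44 for RPFs (adjusted p = 3.45e-05) on the log2 scale, and without BM mouse 1 of day 10 the differences were −6.39 ± 0.71 and −5.96 ± 0.49. TE could not be judged at such counts (0.78 ± 1.13, adjusted p = 0.856).

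The other genotypes of day 10 were less clear for *Dio1*. WT mouse 2, at 60.1 RNA CPM, was low beside WT mice 1 and 3 at 133 and 140. B was at 70.7, 71.7 and 39.5 CPM, which overlapped with WT, and changed by −0.87 ± 0.30 (edgeR adjusted p = 0.0877). That call was lost without any 1 mouse other than WT mouse 2 (adjusted p of 0.116 to 0.292). RPFs in B at 17.9, 22.1 and 9.30 CPM against 35.8, 21.0 and 30.3 changed by −0.84 ± 0.29 (adjusted p = 0.0775), lost without B mouse 1, WT mouse 1 or WT mouse 3 (adjusted p of 0.126 to 0.245). By library totals neither call in B was made (RNA −0.64 and RPFs −0.59, adjusted p of 0.107 and 0.139). M was at 148, 113 and 79.0 RNA CPM, within the range of WT or above it, with a change of 0.03 ± 0.29 (adjusted p = 0.962). The difference of the M effect between the days was 0.98 ± 0.36 for RNA (adjusted p = 0.328) and 1.22 ± 0.39 for RPFs (adjusted p = 0.207), and for RPFs it passed by DESeq2 (adjusted p = 0.0644) and by edgeR without M mouse 3 of day 10 (1.52, adjusted p = 0.0140).

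*Selenof* and *Selenok* encode proteins of the endoplasmic reticulum, the first a lumenal protein that binds the glycoprotein folding sensor UGGT and the second a small membrane protein of the degradation machinery. *Selenof* (ENSMUSG00000037072, chr3:144276065-144303441, plus strand, UGA codon at chr3:144296406-144296408) changed least by TMM scaling. Its RPFs were at 72.6 to 105 CPM over all 24 mice, with fitted changes of −0.09 to −0.02 in the 6 comparisons and none past the test, although by library totals RPFs in BM were called higher at both days (0.36 and 0.34), as was RNA in BM at day 4 (0.43, adjusted p = 0.00141). Its only call with all mice by TMM scaling was RNA in BM at day 10, at 244, 221 and 221 CPM against 290, 266 and 278 in WT, a change of −0.29 ± 0.12 (edgeR adjusted p = 0.0989). That call was lost without any 1 mouse other than BM mouse 1 (adjusted p of 0.101 to 0.280) and was not made by DESeq2 (adjusted p = 0.145), and by library totals the value was 0.12 (adjusted p = 0.473).

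*Selenok* (ENSMUSG00000042682, chr14:29690265-29698398, plus strand, UGA codon at chr14:29695397-29695399) had lower RNA in M at both days. At day 4 RNA was at 32.9, 27.2 and 33.3 CPM in M and 33.7, 35.6 and 32.6 in BM against 53.4, 51.8 and 45.6 in WT, with no overlap. It fell by 0.70 ± 0.12 in M (edgeR adjusted p = 0.00102, or −0.34 by library totals, adjusted p = 0.0250) and by 0.56 ± 0.11 in BM (adjusted p = 9.72e-04), a call not made by library totals (−0.01, adjusted p = 0.916). At day 10 it was at 28.6, 26.2 and 28.7 CPM in M against 37.5, 57.9 and 41.2 in WT and fell by 0.71 ± 0.16 (adjusted p = 0.0198, or −0.53 by library totals, adjusted p = 0.102), while B at both days overlapped with WT. The difference between the days was −0.02 ± 0.21 in M (adjusted p = 0.988).

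RPFs of *Selenok* were few, at 52 to 166 counts per library. At day 4 they were at 15.2, 12.9 and 9.83 CPM in WT, 7.72, 7.46 and 8.85 in B, 9.39, 8.12 and 4.72 in M and 7.39, 5.31 and 6.02 in BM, and no mutant mouse reached the lowest WT mouse. The changes were −0.68 ± 0.17 in B (edgeR adjusted p = 0.0347), −0.74 ± 0.24 in M (adjusted p = 0.0452) and RPFs fell by 1.00 ± 0.18 in BM (adjusted p = 0.00115). Without WT mouse 1, the highest, the calls in B and M were lost (−0.51, adjusted p = 0.151, and −0.57, adjusted p = 0.174), and that in B also without B mouse 2 (−0.62, adjusted p = 0.113). By library totals the change in M was not called (−0.52, adjusted p = 0.132) and the others were. In B, where RNA had changed by 0.07 ± 0.10 (adjusted p = 0.827), the TE change was −0.74 ± 0.19 (adjusted p = 0.919), and −0.73 ± 0.16 with the mouse as a block (adjusted p = 0.0710).

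*Selenok* RPFs in BM at day 10 were at 4.41 CPM in mouse 1 and at 12.9 and 12.2 in mice 2 and 3, against 7.35, 8.69 and 9.85 in WT. Mouse 1 was below and the other 2 were above every WT mouse. With all 3 the change was 0.17 ± 0.38 (edgeR adjusted p = 0.745), and without mouse 1 it was 0.54 ± 0.17 (adjusted p = 0.0204), with a TE change of 0.73 ± 0.27 (adjusted p = 0.0814). The BM effect on RPFs was higher at day 10 than at day 4 by 1.17 ± 0.47 (adjusted p = 0.0811). That call was lost in 9 of the 12 refits without 1 mouse (adjusted p of 0.103 to 0.201) and kept only without BM mouse 1 of either day or WT mouse 3 of day 4.

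*Selenow* (ENSMUSG00000041571, chr7:15651133-15656327, minus strand, UGA codon at chr7:15654389-15654391) encodes a small thiol redox protein with a thioredoxin-like fold. With all mice and TMM scaling its calls were in BM. By library totals RNA was also called higher in M at day 4 (0.62, adjusted p = 0.00230) and RPFs in B and M at day 10 (0.41 and 0.49, adjusted p of 0.0962 and 0.0844). At day 4 its RPFs were at 7.03, 6.68 and 5.95 CPM against 10.6, 9.59 and 12.1 in WT, with no overlap, and fell by 0.69 ± 0.15 (edgeR adjusted p = 0.00271, or −0.26 by library totals, adjusted p = 0.148), while RNA at 24, 24.7 and 20.7 CPM overlapped with the 24.3, 30.5 and 24.5 of WT (−0.19 ± 0.14, adjusted p = 0.306, or 0.36 by library totals, adjusted p = 0.0371). At day 10 RNA was at 20.5, 17.0 and 13.0 CPM against 31.3, 26.2 and 26.0, with no overlap, and fell by 0.72 ± 0.19 (adjusted p = 0.0186, or −0.32 by library totals, adjusted p = 0.218). RPFs were at 2.96 CPM in BM mouse 1 and at 8.23 and 8.43 in mice 2 and 3, around the 7.08 to 9.25 of WT. The TE change was 0.41 ± 0.46 (adjusted p = 0.799) with all mice and 0.95 ± 0.25 (adjusted p = 0.0218) without BM mouse 1. Without that mouse the BM effect differed between the days by −0.71 ± 0.22 for RNA and 0.75 ± 0.22 for RPFs (adjusted p of 0.0202 and 0.0126). RPF counts of this gene were 51 to 152 per library.

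**Figure D5:**
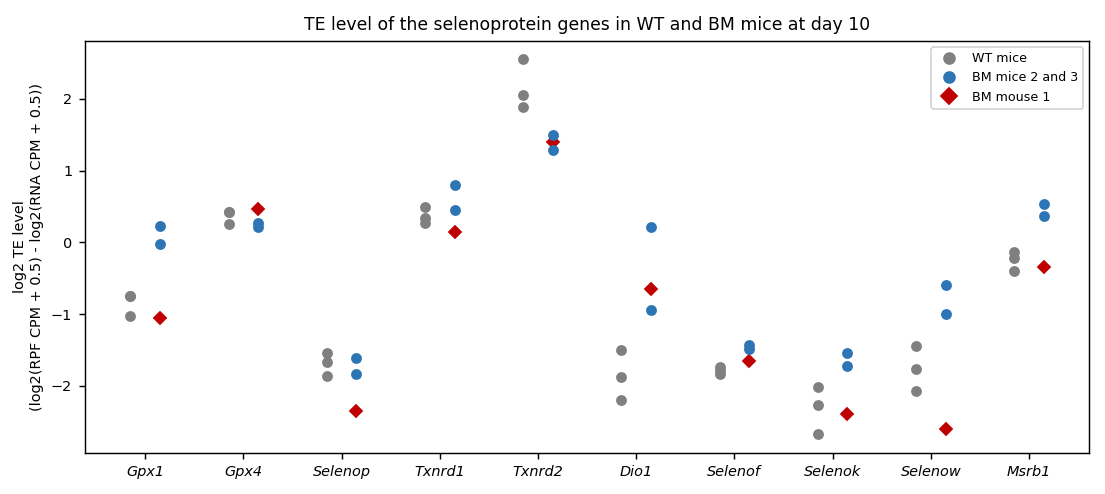
Log2 TE level, log2(RPF CPM + 0.5) − log2(RNA CPM + 0.5), of the 10 genes at day 10 in 3 WT mice (grey), BM mice 2 and 3 (blue) and BM mouse 1 (red diamonds). For *Gpx1*, *Selenok*, *Selenow* and *Msrb1*, BM mice 2 and 3 are above the WT mice and BM mouse 1 is not, while for *Txnrd2* all 3 BM mice are below the WT mice. For *Selenof* and *Dio1* all 3 BM mice are above the WT mice. The BM points of *Dio1* rest on 0 to 10 counts per library and on the 0.5 added.

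Other values moved beside these. Summed RNA of the 6 hepatocyte markers was at 78163 to 90654 CPM in WT, 60277 to 79600 in B, 47302 to 64769 in M and 28979 to 36714 in BM at day 4, and at 82491 to 84620, 27927 to 34293, 35493 to 43007 and 24011 to 27237 at day 10. All 6 were lower in BM at day 4 by TMM scaling (edgeR), of which *Hnf4a* and *Ttr* were at 0.07 and 0.18 by library totals, and at day 10 4 were lower and 1, *Tat*, was higher. Of the 6 markers each for Kupffer, endothelial, stellate and blood cells, 6, 6, 5 and 6 were lower in BM at day 4, and 3 of 5 tested for cholangiocytes, beside 41.9% of all genes called. By library totals 4, 1, 2, 6 and 1 of these calls were made in the same direction, and 4 of the 6 for hepatocytes. Their summed RNA in WT and BM at day 4 was 224 to 281 and 95.6 to 122 CPM for Kupffer cells, 351 to 366 and 217 to 256 for endothelial cells, and 448 to 472 and 239 to 299 for stellate cells. It was 103 to 185 and 80.6 to 117 CPM for cholangiocytes and 560 to 590 and 223 to 315 for blood cells. In BM at day 10 the Kupffer list had 2 markers higher and 1 lower, the endothelial list 5 lower, the stellate list 5 lower and 1 higher, the blood list 1 lower and the cholangiocyte list none past the test, beside 45.7%. In B at day 4, 0 hepatocyte, 3 Kupffer, 2 endothelial, 0 stellate, 1 cholangiocyte and 0 blood cell markers passed, all lower, beside 8.14% of all genes. For M at day 4 these were 4, 2 (1 higher), 3, 2, 1 and 5, beside 23.7%. In B at day 10 they were 4, 2 (1 higher), 3, 5, 0 and 1, beside 15.6%, and in M at day 10 they were 5, 0, 4, 4, 0 and 5, beside 15.7%. Summed stellate RNA was at 249 to 298 CPM in B at day 10 against 498 to 562 in WT, summed blood cell RNA at 316 to 410 in M at day 4 against 560 to 590, and summed Kupffer RNA in M at day 4 ran from 144 to 449. Over the 6 comparisons, library totals made 17 of the 24 hepatocyte calls in the same direction, 10 of 16 for Kupffer cells, 9 of 23 for endothelial cells, 13 of 22 for stellate cells, 2 of 5 for cholangiocytes and 13 of 18 for blood cells. None of the markers was at 0 in all mice of a group. The part of these shifts in the changes of the selenoprotein genes was not tested.

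Calls among the 14 other selenoprotein genes went both ways. In BM at day 4, 3 of 8 tested were higher and 2 lower for RNA, with a median of 0.15, and at day 10, 2 of 8 were higher and 2 lower, with a median of −0.04, beside 41.9% and 45.7% of all genes called. For RPFs the calls were 3 higher and 1 lower of 10 at day 4 and 2 higher and 2 lower of 9 at day 10, beside 50.9% and 46.8%. *Selenoh*, a nucleolar protein with a DNA-binding fold, rose most. Its RPFs were at 24.4, 19.5 and 21.4 CPM in BM at day 4 against 3.49, 4.13 and 2.49 in WT, a change of 2.71 ± 0.17 (edgeR adjusted p = 6.36e-07), and its RNA rose by 2.85 ± 0.29 (adjusted p = 3.99e-06). In M at day 4 its RPFs rose by 1.20 ± 0.20 (adjusted p = 0.00201) and in BM at day 10 by 1.74 ± 0.25 (adjusted p = 0.00222). *Gpx3*, the plasma glutathione peroxidase, had RNA at 7.95, 14.7 and 12.7 CPM in BM at day 10 against 3.11, 3.52 and 3.68 in WT and rose by 1.76 ± 0.29 (adjusted p = 0.00189). At day 4 it was lower in BM (−1.02 ± 0.34, adjusted p = 0.0300, or −0.48 by library totals, adjusted p = 0.222). Over the 6 comparisons this list had 16 calls among 49 RNA values (32.7%) and 18 among 57 RPF values (31.6%), beside 25.2% and 31.4% over all genes, and 12 and 13 were also made by library totals in the same direction, and 3 and 1 changed sign.

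Of the same list, *Txnrd3*, the thioredoxin glutathione reductase, rose at day 4 in all 3 mutant genotypes by RPFs (0.56 ± 0.13, 0.67 ± 0.13 and 0.90 ± 0.14 in B, M and BM, edgeR adjusted p of 0.0237, 0.00402 and 3.44e-04). *Selenoi*, an enzyme of phospholipid synthesis, was higher in B and BM at day 4 (RNA 0.65 ± 0.09 and 0.64 ± 0.10, adjusted p of 0.00121 and 2.23e-04) and lower in BM at day 10 (−0.76 ± 0.13, adjusted p = 0.00221). *Selenoo*, a mitochondrial AMP transferase, was higher in M at day 4 (RNA 0.59 ± 0.11, adjusted p = 0.00172). *Selenos*, a membrane protein of the endoplasmic reticulum, was lower in M at day 10 (RNA −0.55 ± 0.12, adjusted p = 0.0130). TE called 0 of the 8 or 9 genes tested in each of the 6 comparisons, with 0 at an unadjusted p under 0.05 except for 1 in M at day 10.

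Among the 12 genes that make selenocysteine, insert it or take up selenium, calls went both ways. *Secisbp2*, which binds the SECIS element, passed in none of the 6 comparisons for RNA or RPFs by TMM scaling. In BM, 3 of 12 RNA values were higher and 1 lower at day 4, and 1 was higher and 2 lower at day 10, beside 41.9% and 45.7% of all genes called. Of 11 RPF values in BM, 5 were higher and 1 lower at day 4, and 2 were higher and 3 lower at day 10, beside 50.9% and 46.8%. M had 3 higher and 0 lower RPF values at day 4, beside 33.3%, and 3 higher and 2 lower at day 10, beside 19.4%. *Scly*, which frees selenium from selenocysteine for reuse, fell in BM at day 10 (RNA −1.15 ± 0.19, edgeR adjusted p = 0.00232, and RPFs −1.04 ± 0.18, adjusted p = 0.00452). *Lrp2*, an endocytic receptor known to take up selenoprotein P in kidney, rose in BM at day 4 (RNA 1.49 ± 0.34, adjusted p = 0.00391) and fell at day 10 (RNA −2.96 ± 0.59, adjusted p = 0.00487). *Pstk*, the kinase that acts on the serine-charged tRNA, had higher RPFs in M and BM at day 4 (0.87 ± 0.15 and 0.61 ± 0.16, adjusted p of 0.00270 and 0.00968) and lower RPFs in B at day 10 (−0.67 ± 0.16, adjusted p = 0.0235, or −0.41 by library totals, adjusted p = 0.112). Over the 6 comparisons this list had 11 calls among 72 RNA values (15.3%) and 23 among 66 RPF values (34.8%), beside 25.2% and 31.4% over all genes. Library totals made 8 and 20 of the list's calls in the same direction. *Trnau1ap*, a partner of that tRNA, had higher RPFs in M and BM at day 4 (0.70 ± 0.15 and 0.55 ± 0.14, adjusted p of 0.00675 and 0.00972). *Alkbh8*, a tRNA methyltransferase, had higher RPFs in BM at day 10 (0.98 ± 0.21, adjusted p = 0.0102) and *Trit1*, another tRNA-modifying enzyme, lower RPFs in B at day 10 (−0.71 ± 0.14, adjusted p = 0.00932).

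The homologues that carry cysteine in place of selenocysteine were set beside their selenoprotein kin. *Msrb3*, a methionine sulfoxide reductase, fell with *Msrb1* in BM at day 4 (RPFs −1.26 ± 0.14, edgeR adjusted p = 3.44e-05), while *Msrb2*, its mitochondrial relative, had higher RPFs (0.42 ± 0.13, adjusted p = 0.0236). *Msra*, which reduces the other epimer of methionine sulfoxide, fell in BM at both days (RPFs −0.46 ± 0.09 and −0.67 ± 0.17, adjusted p of 0.00219 and 0.0161), neither called by library totals (−0.03 and −0.30). Over the 6 comparisons these homologues had 7 calls among 19 RNA values (36.8%) and 14 among 29 RPF values (48.3%), beside 25.2% and 31.4% over all genes. Library totals made 1 and 10 of them in the same direction. *Gpx7*, an endoplasmic reticulum peroxidase, rose in BM at day 4 (RPFs 2.73 ± 0.31, adjusted p = 4.37e-05) and *Gpx8*, its membrane-bound relative, fell (−1.52 ± 0.29, adjusted p = 0.00148).

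Among 19 thiol antioxidant partners, BM at day 4 had 6 higher and 4 lower for RNA (median 0.17), and BM at day 10 had 4 higher and 9 lower (median −0.22), beside 41.9% and 45.7% of all genes called. Over the 6 comparisons, this list had 44 calls among 114 RNA values (38.6%) and 51 among 114 RPF values (44.7%), beside 25.2% and 31.4% over all genes. Of the list's calls, 28 and 34 were also made by library totals in the same direction. *Prdx3*, the mitochondrial peroxiredoxin, was higher in BM at both days (RNA 0.73 ± 0.09 and 1.27 ± 0.15, edgeR adjusted p of 3.72e-05 and 4.38e-04) and in B at both days (0.58 ± 0.12 and 1.06 ± 0.15, adjusted p of 0.0128 and 0.00124). In B and BM at day 10, *Txnrd2*, whose product recycles the thioredoxin that serves this enzyme, had fewer RPFs. *Gclc*, the catalytic subunit of glutathione synthesis, fell in B and BM at day 10 (RNA −1.01 ± 0.15 and −1.89 ± 0.22, adjusted p of 0.00161 and 3.76e-04), as did *Cat*, catalase (−0.77 ± 0.19 and −1.62 ± 0.20, adjusted p of 0.0221 and 5.35e-04). *Prdx4*, the endoplasmic reticulum peroxiredoxin, fell in BM at day 10 (RNA −1.46 ± 0.15, adjusted p = 1.84e-04). *Glrx*, glutaredoxin, rose in B at both days (RNA 1.16 ± 0.15 and 1.52 ± 0.26, adjusted p of 5.41e-04 and 0.00320), and *Nqo1*, a quinone reductase, rose in B and BM at day 4 (RPFs 1.08 ± 0.17 and 1.31 ± 0.14, adjusted p of 0.00287 and 2.38e-05).

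Promoters of the members were searched on both strands for CACGTG, an E-box of the kind bound by MYC and MAX, and for TGACNNNGC, the core of the antioxidant response element, in RefSeq promoters of GRCm38.p6 that run from 250 bases before to 50 after each start. The E-box was in 7.15% of all 32851 promoters and at 8.09% of all 27025 genes with a promoter, in 0 of the 10 members and in 3 of the 14 other selenoprotein genes, *Selenoh*, *Selenos* and *Sephs2*. The antioxidant core was in 12.4% of all promoters and at 14% of all genes, in 2 of the 10 members and in 0 of the 14. The 2 members' matches are shown with 9 bases on each side and the match in capitals, that of *Txnrd1* on the opposite strand of the motif, and no match overlapped with one of the other motif.
Selenok: ttacttgtgTGACTGGGCggaacctct
Txnrd1: tggatttttGCTTTGTCAttctgacac

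These lie at chr14:29968327-29968353 and chr10:82859105-82859131 of GRCm38.p6, 44 and 92 bases before the annotated starts. *Txnrd1* RNA rose in BM at day 4 by both scalings, and *Selenok* RNA fell by TMM scaling alone. A match to these letters is no evidence of binding.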

How the data were processed

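Per the labels and the study's methods, the authors sequenced RPFs and cytoplasmic RNA from each liver lysate. RPF reads were trimmed with Cutadapt 1.18, deduplicated by molecular identifiers, aligned with BBmap to 1 transcript per gene (GENCODE vM27, GRCm39) and deposited as raw counts over coding sequences, leaving out the first 20 and the last 10 codons. RNA reads were aligned with Bowtie2 2.3.5.1, and the authors deposited RSEM 1.3.3 expected counts and TPM per isoform. Here expected counts and TPM were summed per gene, expected counts were rounded, and RPF transcripts without an entry in a library were taken as 0. Counts were tested in edgeR 4.0.16 (R 4.3.3, limma 3.58.1) with TMM scaling within each library type, filterByExpr (minimum count 10, total 15), quasi-likelihood tests of 3 against 3 mice of a day, 12 mice for the day differences, and Benjamini-Hochberg adjustment over all genes tested. SEs are the log2 change divided by the square root of F. Errors of levels are SDs of 3 mice. DESeq2 1.42.0 was an alternative, beside RLE scaling, other filters, a mouse block, a replicate-number block, RNA of the RPF transcript alone and each mouse left out. Scaling by library totals without TMM was added after the data were seen. Printed CPM are scaled with TMM. The edgeR fits with TMM scaling of RNA, RPFs and TE, the last also with the mouse block, were tested on simulated counts of BM against WT at day 4. The other comparisons and alternatives were not tested on simulated data. RPF and RNA libraries of a mouse deviated together from their group means (r of 0.176 to 0.608, over 0.1 in 24 of 24 mice), so that the mouse pairs them.

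The members and the gene lists were chosen with earlier results of these data known. All members are described, and from each other list up to 6 genes were named by the size of their largest change past the threshold. *Secisbp2* and *Tat* are named outside this rule, after their values were seen. The labels give no sequencing batch.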

Additional observations from a re-analysis of the deposited data

Results flagged for a closer look

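For 6 of the 10 selenoprotein genes, the effect of a genotype differed between day 10 and day 4 by a test of the difference itself (edgeR, quasi-likelihood, adjusted by Benjamini-Hochberg, 12 mice, day 10 effect minus day 4 effect on the log2 scale). That count pools RNA and RPFs over B, M and BM, and no share of all genes was worked out for the pool. *Txnrd2* RPFs differed by −1.01 ± 0.19 in B (SE, adjusted p = 0.00504) and by −1.19 ± 0.19 in BM (adjusted p = 0.00110), and its RNA by −1.07 ± 0.35 in BM (adjusted p = 0.0401), a call lost without WT mouse 1 of day 10. *Dio1* in BM differed by −5.54 ± 0.57 for RNA (adjusted p = 1.75e-05) and −4.68 ± 0.44 for RPFs (adjusted p = 3.45e-05), where the size rests on at most 10 counts per library in BM at day 10 and was −6.39 and −5.96 without BM mouse 1 of that day.

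*Selenop* moved the other way in BM, by 0.73 ± 0.19 for RNA (edgeR adjusted p = 0.0132) and 0.83 ± 0.26 for RPFs (adjusted p = 0.0361). *Selenok* RPFs in BM differed by 1.17 ± 0.47 (adjusted p = 0.0811), *Txnrd1* RNA by −0.56 ± 0.18 (adjusted p = 0.0408) and *Msrb1* RNA by −0.69 ± 0.25 (adjusted p = 0.0626), each lost without at least 1 mouse. In the same test of BM, 5 members passed for RNA beside 29.9% of all genes, and 4 for RPFs beside 35.7%. For RPFs in B, 1 member passed beside 17.2%. RNA in B and both RNA and RPFs in M had 0 members past the test, beside 9.31%, 1.20% and 1.18%.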

How the results depend on the processing

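Of 57 called member values, 17 lost their call without at least 1 mouse, and RLE scaling left all 27 counts of called members within 1.5 times. The cause of the changes below was not tested, and the scalings differ in what is held equal between libraries. DESeq2 called 3 members for RNA in B at day 4, 1 for RPFs in the M day difference and 1 for TE in B at day 10, where edgeR called 1, 0 and 0. With no filter on low counts the RNA counts were 3 in B at day 4, and 1 in both the B and the M day difference. With the mouse as a block, TE called 1 member in B at day 4, 2 in BM at day 4 and 1 in B at day 10, and with the replicate number as a block RNA in B at day 10 had 1 in place of 2. Replicate numbers do not pair mice across genotypes (r of −0.172 to 0.202 for RNA, over 0.1 in 2 of 18 pairs), and that block changed no other count by over 1.5 times. Scaling by library totals without TMM was chosen after the data were seen. For RNA in B and M it called 3 and 7 members at day 4, beside 16.5% and 53.3% of all genes, and 0 and 0 at day 10, beside 23.4% and 19.7%. It called 2 and 2 for RPFs in M at day 4 and day 10, beside 44.3% and 33.8%, and 1 for TE in BM at day 4, beside 2.28%. Values that changed sign by it included RNA of *Gpx1* (0.22), *Gpx4* (0.21), *Txnrd1* (0.23), *Selenof* (0.10) and *Msrb1* (0.03) in M at day 4, RNA of *Gpx4* (0.22), *Selenof* (0.43), *Selenow* (0.36) and *Msrb1* (0.04) in BM at day 4, RNA of *Selenop* (0.35), *Txnrd1* (0.27) and *Selenof* (0.12) in BM at day 10, and RPFs in BM of *Gpx4* (0.05 at day 4 and 0.06 at day 10) and *Selenof* (0.36 and 0.34). Without 1 mouse, the RPF values in BM at day 4 went from −0.12 to 0.01 for *Selenof* and from −0.01 to 0.15 for *Txnrd2*, neither called with all mice. *Selenok* RPFs in BM at day 10, not called, went from 0.17 to −0.08 without BM mouse 2, to −0.02 without BM mouse 3 and to 0.54 (called) without BM mouse 1. With a pseudocount of 0.1, the log2 TE level of *Dio1* at day 4 was −1.68 in B and −1.78 in BM, against −1.66 and −1.75 with 0.5. In BM at day 10, where libraries held 0 to 10 counts of *Dio1*, its level also depends on the pseudocount, and the value with 0.1 is not given here. Leaving out 1 mouse at a time gave 1 to 3, 3 to 5 and 8 to 8 members for RNA in B, M and BM at day 4, and 0 to 2, 1 to 1 and 4 to 6 at day 10. For RPFs it gave 2 to 4, 5 to 8 and 7 to 8 at day 4, and 2 to 4, 0 to 0 and 3 to 5 at day 10. For the day differences it gave 0 to 0, 0 to 0 and 3 to 6 for RNA, and 1 to 2, 0 to 1 and 3 to 7 for RPFs. For TE it gave 0 to 0 except 0 to 4 in BM at day 10 and 0 to 4 in the BM day difference. RNA counts of *Txnrd2* and RPF counts of *Selenok* and *Selenow* limit their precision.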
